A study of Mus musculus with 6 samples.

Results

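The Ly49 receptors are lectin-like proteins on mouse natural killer (NK) cells, encoded by the Klra genes. The 10 genes Klra1 to Klra10 were taken by symbol from a count table of 50686 genes, and all 10 passed the filter on low counts that left 15458 genes for testing. The series measured RNA of splenic NK cells by bulk sequencing in 2 groups of 3 libraries. The Eumyc group came from C57BL/6J mice inoculated intravenously with Eumyc lymphoma, in which an immunoglobulin enhancer drives Myc in B cells, with spleens taken at day 14. The WT group came from healthy wild-type C57BL/6J mice. Cells of both groups were depleted of B cells, enriched on CD49b beads and sorted as NK1.1+ TCRb- cells. In the Eumyc group the unbound bead fraction was sorted too, so the sort and the lymphoma cannot be told apart in any difference below.

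Most Ly49 receptors are inhibitory. They bind classical class I molecules of the major histocompatibility complex on other cells and recruit phosphatases through a tyrosine motif in their cytoplasmic tail, which restrains killing of cells with normal class I. A few are activating, lack that motif and signal through the adaptors DAP12 and DAP10; in C57BL/6 mice these are Ly49D, encoded by Klra4, and Ly49H, encoded by Klra8. Each NK cell switches on its own subset of the genes, so a bulk level joins the share of cells that use a gene with the RNA per such cell. Here fewer cells and less RNA per cell cannot be told apart.

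The members lie on the minus strand of chromosome 6 (GRCm38, coordinates of the deposited table) from the start of Klra5 at 129898996 to the end of Klra2 at 131247362. Klra1 (ENSMUSG00000079853) ends at 130386874. Klra2 (ENSMUSG00000030187) stands apart, from 131219223 to an end that lies 860.5 kb beyond the end of Klra1. All 10 are protein-coding in the table. The same stretch holds 3 pseudogenes, Klra11-ps, Klra13-ps and Klra14-ps, Klra17 lies just before Klra5 at 129831154 to 129876672, and all 14 Klra genes had the coordinates of GENCODE M21.

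The start regions of the members are related to each other. RefSeq promoter windows (GRCm38.p6, 250 bases before to 50 after each start) were found for all 10 members. The longest stretches that at least 7 of them held exactly were 11 bases long. There were 2 of these, and the first in alphabetical order was used. An eighth member, Klra7, held that stretch with the substitution A4G, counted from the 5′ end of the stretch. The windows below are shown because members that rose and members that fell share this stretch; it is in capitals, and each sequence is on the minus strand.
Klra2: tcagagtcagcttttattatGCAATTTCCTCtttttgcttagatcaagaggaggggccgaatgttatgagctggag
Klra6: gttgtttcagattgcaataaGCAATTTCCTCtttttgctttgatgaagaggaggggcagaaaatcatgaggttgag
Klra7: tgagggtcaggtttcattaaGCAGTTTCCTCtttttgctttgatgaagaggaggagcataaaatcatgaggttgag
Klra4: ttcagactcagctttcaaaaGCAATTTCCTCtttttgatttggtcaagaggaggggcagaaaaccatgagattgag
Klra8: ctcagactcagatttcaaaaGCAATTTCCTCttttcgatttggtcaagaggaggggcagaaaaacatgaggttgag
Klra9: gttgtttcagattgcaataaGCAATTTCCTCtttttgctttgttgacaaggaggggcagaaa
These windows are chr6:131247382-131247457, chr6:130027022-130027097, chr6:130233360-130233435, chr6:130067299-130067374, chr6:130129927-130130002 and chr6:130193113-130193174, in the order shown. Klra3 and Klra5 held the stretch as well, and the windows of Klra1 and Klra10 did not hold it with up to 1 substitution. On either strand, 0.0578% of the 32851 mouse promoter windows held it exactly, and 8 of the 18 gene symbols concerned were Klra genes. At least 7 of these 8 were fixed in advance by the way the stretch was chosen. Of 3 motifs searched on both strands, TGTGGT, the core bound by RUNX factors, was in the window of Klra1 alone among the members and in 16.8% of all windows. CTTTGA, part of the site of TCF1, was in those of Klra6 and Klra7 and in 16% of all windows. The T-box motif GGTGTGA was in that of Klra1 and in 3.98% of all windows.

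Near-identical copies can exchange or lose reads in counting, so the transcripts themselves were compared. At a stretch length of 50 bases, Klra2 had no stretch in common with a transcript of another gene, and Klra5, Klra6, Klra1 and Klra4 shared 0.656%, 2.62%, 2.98% and 4.68% of theirs. Klra7 shared 12.3%, all with Klra13-ps, and Klra3, Klra9, Klra8 and Klra10 shared 20.7%, 31.5%, 33.1% and 39.8%. At 100 bases the shares were 0% for Klra1, Klra2, Klra4, Klra5 and Klra6, and 14.4% for Klra8, most of it with Klra14-ps. Of the 5 members with under 5% shared at 50 bases, 3 were higher in Eumyc, 1 was lower and 1 did not pass the test described next. All 4 members with at least 20% shared were lower, though Klra3 kept that call in only 6 of 12 alternative analyses. Klra7, between these classes, was higher. These classes depend on the stretch length. At 75 bases Klra3 and Klra7 shared 6.39% and 5.71%, and at 100 bases 1.78% and 1.83%. Klra9 and Klra10 shared 4.07% and 5.25% at 100 bases. Among all tested genes, 25.7% were higher and 23.1% lower. The part of shared sequence in the differences was not tested.

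**Figure D1:**
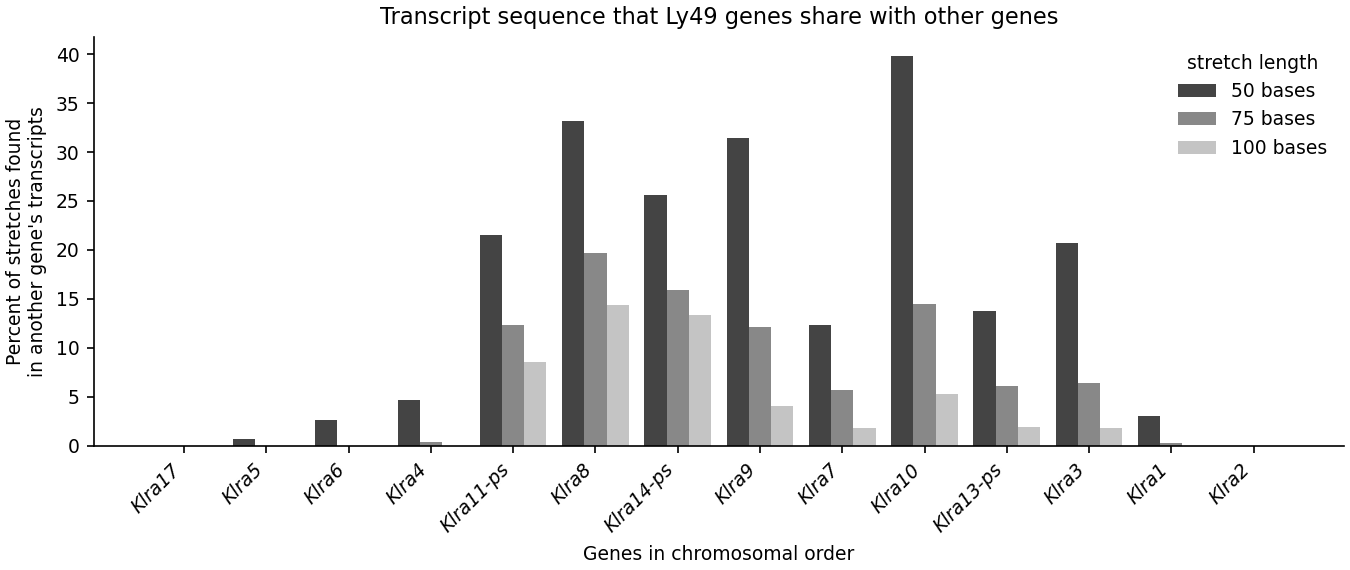
Percent of transcript stretches of 50, 75 or 100 bases (y axis) that occur exactly in transcripts of another gene, for the 14 Klra genes in chromosomal order (x axis). Klra10 and Klra8 share most at 50 bases, and Klra2 and Klra17 share none.

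In the comparison of Eumyc with WT, 4 members rose and 5 fell, and Klra5 did not pass. The test was edgeR's quasi-likelihood test with Benjamini-Hochberg adjustment over all tested genes, at an adjusted p under 0.05. Of all tested genes, 48.8% passed: 25.7% were higher and 23.1% lower in Eumyc. The CPM values of the groups (counts scaled to library size, here with TMM factors) did not overlap for any of the 10 members, 5 higher and 5 lower, against 60.2% of all tested genes (31.3% higher and 28.9% lower). The median log2 fold change of the members was 0.03, against -0.01 over all tested genes, and the median of its absolute size was 0.72, against 0.37. The library of Eumyc 3 had the lowest value among Eumyc libraries, and WT 3 the lowest among WT libraries, for each of Klra4, Klra8, Klra9 and Klra10.

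**Figure D2:**
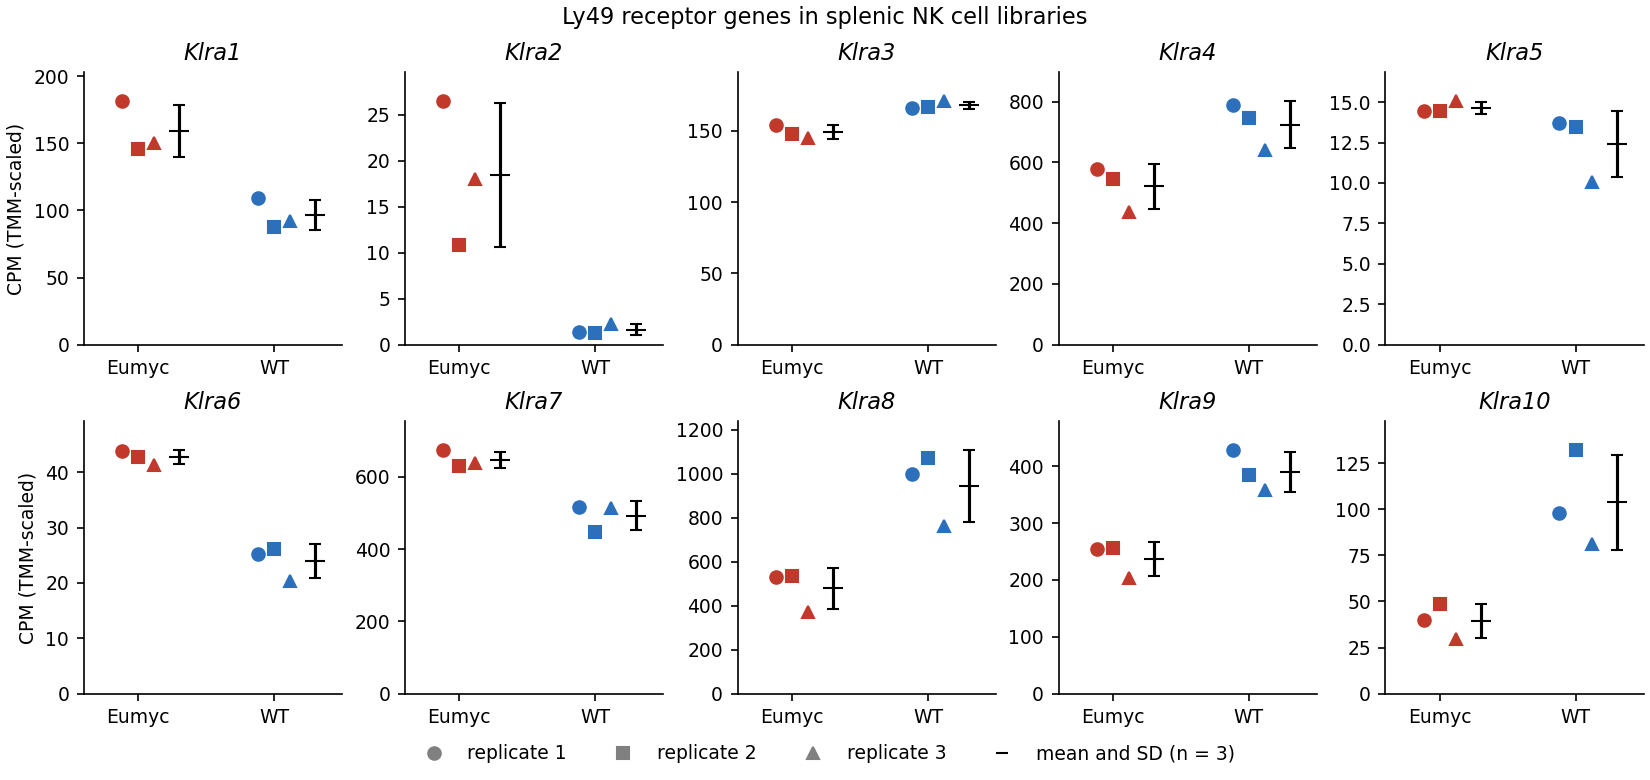
TMM-scaled CPM (y axis, linear from 0) of each Ly49 gene in the 3 Eumyc and 3 WT libraries, with the mean and SD beside the points. The groups do not overlap for any gene, and Klra2 shows the widest relative spread in Eumyc, at 10.8 to 26.4 CPM.

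Both activating receptor genes fell. Klra8, whose product Ly49H recognises the m157 protein of mouse cytomegalovirus, had 530, 537 and 373 CPM in the Eumyc libraries, against 999, 1072 and 762 CPM in the WT libraries. All Eumyc values were under the lowest WT value. The log2 fold change of Klra8 was -0.98 ± 0.17 (SE, n = 3 each, edgeR adjusted p = 0.00191), or 0.508 times the WT level. Klra4, encoding Ly49D, had 580, 546 and 437 CPM in Eumyc, against 787, 746 and 640 CPM in WT. Its groups were separate but closer, with a log2 fold change of -0.48 ± 0.12 (edgeR adjusted p = 0.0102).

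Among the inhibitory receptors of known class I binding, 2 rose and 2 fell. Klra7, encoding Ly49G, a receptor for the class I molecule H-2Dd, had 673, 630 and 639 CPM in Eumyc, against 517, 447 and 513 CPM in WT. It rose by 0.40 ± 0.07 on the log2 scale (edgeR adjusted p = 0.00267). Klra1, encoding Ly49A, which also binds H-2Dd, had 181, 146 and 151 CPM in Eumyc, against 109, 87.9 and 92.2 CPM in WT. It rose by 0.72 ± 0.11 (edgeR adjusted p = 0.00103), and Eumyc 1 was the highest library. The class I molecule bound by both is not one that C57BL/6 mice carry.

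Klra9 and Klra3 encode Ly49I and Ly49C, which bind H-2Kb, a class I molecule of C57BL/6 mice. Klra9 had 254, 255 and 203 CPM in Eumyc, against 428, 385 and 358 CPM in WT, with a log2 fold change of -0.72 ± 0.10 (edgeR adjusted p = 0.000932). Klra3 had 154, 148 and 145 CPM in Eumyc, against 166, 167 and 171 CPM in WT. It was the flattest of the called members, with a log2 fold change of -0.17 ± 0.05 (edgeR adjusted p = 0.0218) and a coefficient of variation of 3.24% in Eumyc and 1.44% in WT. The call of Klra3 held in 6 of 12 alternatives, and its adjusted p reached 0.0993 with no filter and 0.0894 without Eumyc 3, while the sign never changed in them.

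Of the other 3 members of the main cluster, Klra10 fell, Klra6 rose and Klra5 did not pass. Klra10, annotated as Ly49J, had 40.1, 48.5 and 29.6 CPM in Eumyc, against 98.0, 132 and 81.3 CPM in WT, and fell furthest, with a log2 fold change of -1.40 ± 0.21 (edgeR adjusted p = 0.00113). Klra6, encoding the inhibitory receptor Ly49F, had 43.9, 42.8 and 41.4 CPM in Eumyc, against 25.3, 26.2 and 20.4 CPM in WT. It rose by 0.83 ± 0.10 (edgeR adjusted p = 0.000512), with Eumyc libraries that varied by 2.93% of their mean. Klra5, encoding Ly49E, an inhibitory receptor best known from fetal NK cells, had 14.4, 14.4 and 15.04 CPM in Eumyc, against 13.7, 13.5 and 10.1 CPM in WT. Its log2 fold change was 0.23 with a 95% interval of -0.07 to 0.53 (edgeR adjusted p = 0.185).

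Klra2 rose most. It encodes Ly49B, an inhibitory type of Ly49 known from myeloid cells rather than NK cells. It had 26.4, 10.8 and 18.0 CPM in Eumyc, against 1.37, 1.30 and 2.28 CPM in WT, and every Eumyc library was well above the WT libraries. The log2 fold change was 3.54 ± 0.37 (SE, n = 3 each, edgeR adjusted p = 0.000297), an 11.6-fold higher level, and it was between 3.20 and 3.82 in the alternatives.

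**Figure D3:**
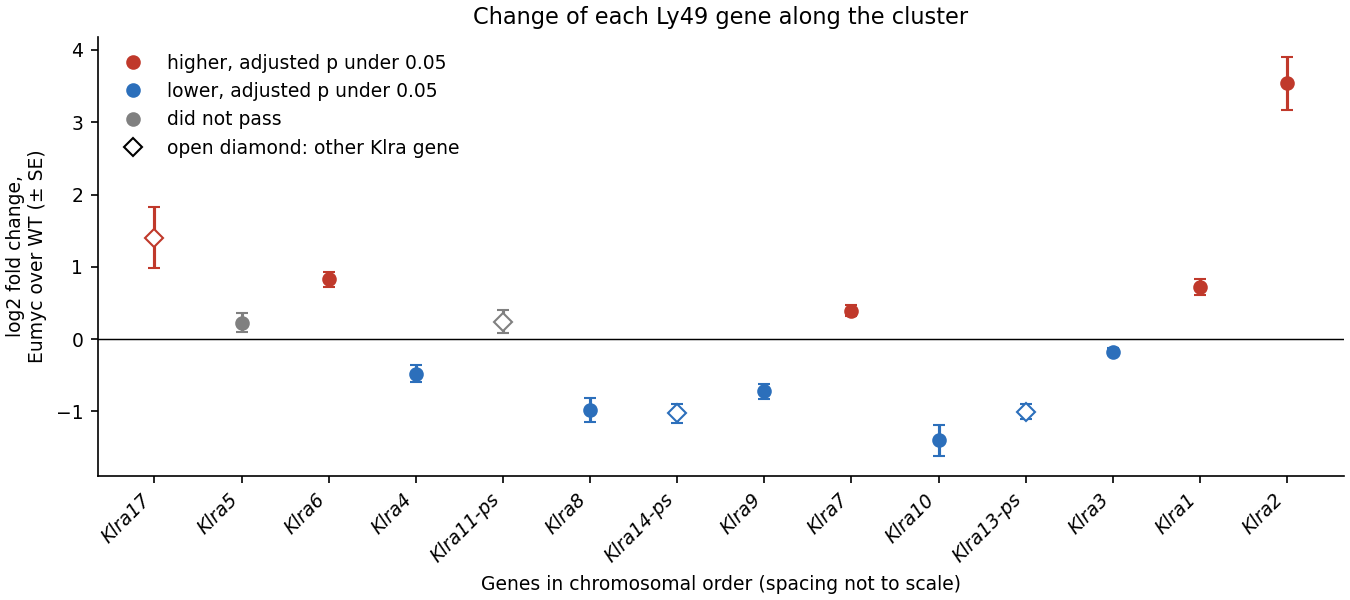
Log2 fold change of Eumyc over WT (y axis, with SE) of the 14 Klra genes in chromosomal order (x axis, not to scale); filled circles are the 10 members and open diamonds the other Klra genes. The genes that fell lie between Klra6 and Klra1. Among them lie Klra7, which was higher, and Klra11-ps, which did not pass. Values run from -1.40 for Klra10 to 3.54 for Klra2.

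Markers of monocytes and macrophages stood higher in the same libraries as Klra2. Of the 15 marker genes 10 rose and none fell, where 25.7% of all tested genes rose and 23.1% fell. The summed level of the markers was 1403, 600 and 795 CPM in Eumyc 1, 2 and 3. It was 170, 167 and 145 CPM in WT 1, 2 and 3. Within Eumyc the libraries had the same order for the marker sum and for Klra2, with replicate 1 highest and replicate 2 lowest. Within WT they did not: WT 3 had the lowest marker sum and the highest Klra2 value. Fcgr4 and Ace, genes of nonclassical monocytes, averaged 123 ± 65.9 and 139 ± 77.1 CPM in Eumyc, against 1.56 ± 0.211 and 1.87 ± 0.562 CPM in WT (SD, n = 3 each). None of the 15 markers was at 0 in WT, and their part in the rise of Klra2 was not tested.

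Klra17, encoding Ly49Q, which is also known from myeloid cells and plasmacytoid dendritic cells, was scarce. It had 0.831, 0.850 and 0.827 CPM in Eumyc, from 36, 55 and 55 counts, against 0.144, 0.433 and 0.359 CPM in WT, from 4, 16 and 6 counts. Its log2 fold change was 1.40 ± 0.42 (edgeR adjusted p = 0.0235), and the call was lost without WT 1 (1.06, adjusted p = 0.0598) and without Eumyc 1, 2 or 3 (adjusted p = 0.0558, 0.0600 and 0.0662). Klra17 passed the filter on low counts only through its Eumyc libraries. With no filter its edgeR adjusted p was 0.0285.

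**Figure D4:**
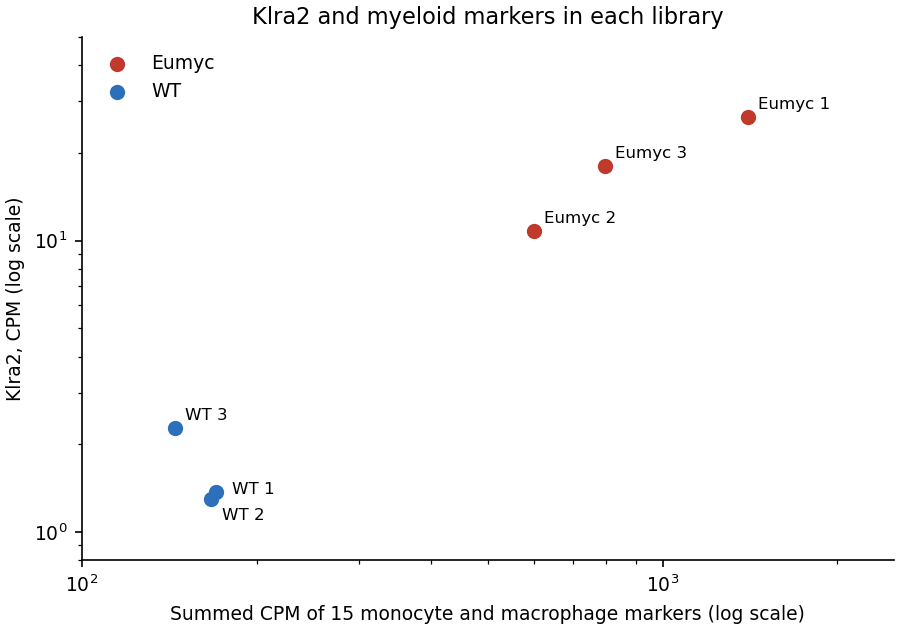
Klra2 in CPM (y axis, log scale) against the summed CPM of 15 monocyte and macrophage markers (x axis, log scale) in each library. The 3 Eumyc libraries lie at 600 to 1403 CPM of markers and 10.8 to 26.4 CPM of Klra2, above all WT libraries on both axes.

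Summed over the 10 members, Ly49 transcripts were lower in Eumyc. The family sum was 2434, 2355 and 2047 CPM of all gene counts in Eumyc, against 3166, 3116 and 2697 CPM in WT. It averaged 2278 ± 205 CPM in Eumyc and 2993 ± 258 CPM in WT (SD, n = 3 each), a ratio of 0.761 with no overlap. No p is given for this sum, since it is a score over chosen members. Klra4 and Klra8 together averaged 987 ± 155 CPM in Eumyc and 1689 ± 228 CPM in WT. The other 8 members summed to 1352, 1283 and 1238 CPM in Eumyc, against 1368, 1275 and 1270 CPM in WT, so that their groups overlapped, at a ratio of 0.990.

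The mixture of receptors differed between the groups. By counts, the activating pair made up 44.4%, 45.5% and 39.5% of the member sum in Eumyc, against 56.8%, 59.1% and 52.9% in WT, a difference of -13.1 percentage points between the means. Taken over the counts of all 14 Klra genes, pseudogenes included, the pair made up 30.6% ± 2.03 in Eumyc and 34.3% ± 1.96 in WT (SD, n = 3 each), a difference of -3.70 points, with Eumyc values of 28.2% to 31.8% and WT values of 32.1% to 35.8%. Per length, in RPKM (CPM divided by the merged exon length in kilobases), Klra7 was the most abundant member in Eumyc at 512 ± 17.9 RPKM, followed by Klra4 at 419 ± 60.0 and Klra8 at 408 ± 78.8 RPKM, whose ranges overlapped. In WT the order was Klra8 at 802 ± 138, Klra4 at 582 ± 61.0 and Klra7 at 389 ± 31.3 RPKM, all with separate ranges (SD, n = 3). Klra9 and Klra3 came next in both groups. Below them, the ranges of Klra10 and Klra6 overlapped in Eumyc, those of Klra5 and Klra2 overlapped in Eumyc, and those of Klra3 and Klra10 overlapped in WT, while all other neighbours in the order were separate. Klra7 held 28.0% ± 2.67 of the summed RPKM in Eumyc and 16.2% ± 2.45 in WT, and Klra8 held 22% ± 2.29 in Eumyc and 32.9% ± 2.95 in WT. Klra4 held 22.7% ± 0.98 in Eumyc and 24.0% ± 0.535 in WT. Klra1 held 4.92% ± 0.508 in Eumyc and 2.26% ± 0.261 in WT. The merged exon length includes sequence shared with other genes, at 50 bases 33.1% for Klra8, 12.3% for Klra7 and 4.68% for Klra4. How reads with several matches were counted was not given. The order of the members and their shares of the summed RPKM are therefore uncertain.

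**Figure D5:**
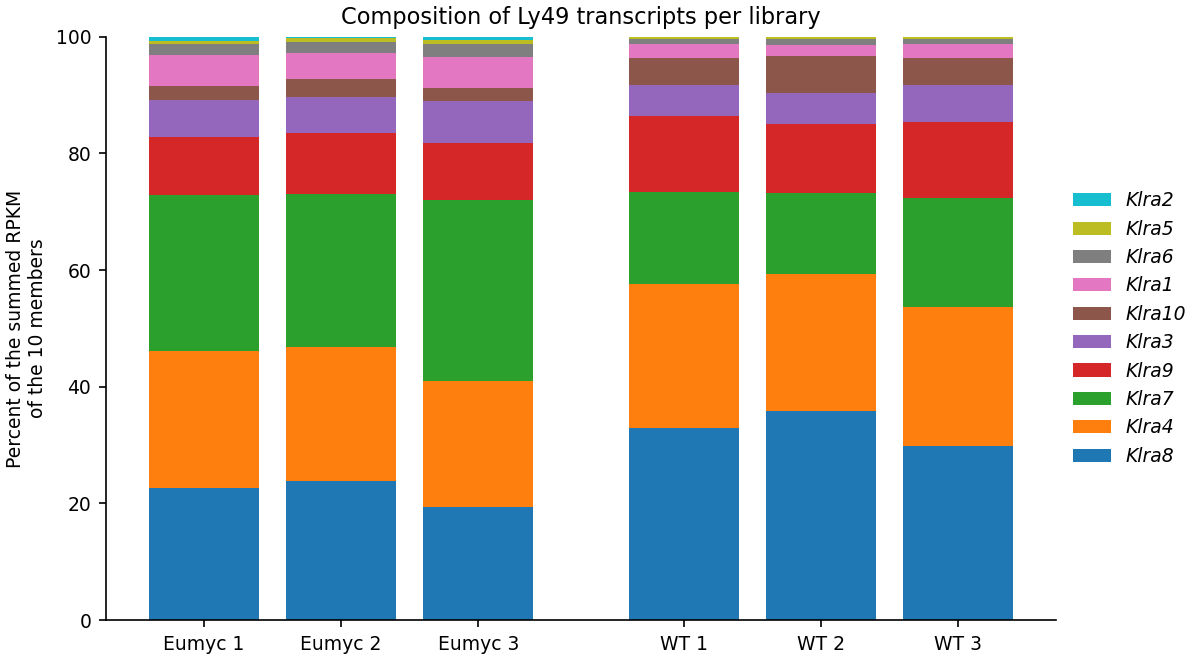
Percent of the summed RPKM of the 10 members (y axis, stacked) in each library (x axis). The Klra8 segment averages 22% in Eumyc and 32.9% in WT, and the Klra7 segment 28.0% in Eumyc and 16.2% in WT.

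Pseudogenes of the cluster took a large part of the Klra counts. Klra13-ps had 728, 742 and 603 CPM in Eumyc, against 1342, 1527 and 1284 CPM in WT. Per length it stood at 664 ± 73.7 RPKM in Eumyc and 1330 ± 122 RPKM in WT, above the mean of every member in both groups. It fell with a log2 fold change of -1.003 ± 0.10 (edgeR adjusted p = 0.000264). Klra14-ps, which shares 25.6% of its 50-base stretches with other genes and 20.7% with Klra8, had 264, 274 and 204 CPM in Eumyc, against 501, 576 and 433 CPM in WT. Its log2 fold change of -1.03 ± 0.13 (edgeR adjusted p = 0.000617) was close in size to that of Klra8. Klra11-ps averaged 9.20 ± 0.515 CPM in Eumyc and 7.72 ± 1.52 CPM in WT and did not pass (edgeR adjusted p = 0.235). The 3 pseudogenes took 29.1% ± 0.916 of all Klra counts in Eumyc and 39.0% ± 1.85 in WT. Summed over all 14 Klra genes the family was at 0.654 times the WT level.

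The authors' deposited table listed all 10 members, with the same direction as the fit above for each of them and an adjusted p under 0.05 for 9. In the authors' deposited table Klra2 had a log2 fold change of 2.88 (SE 0.28), Klra8 of -0.95 (SE 0.15) and Klra5 of 0.21 with an adjusted p of 0.214.

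Of 20 genes that carry Ly49 signals, 6 were higher and 6 lower (median log2 fold change 0.00). These counts are near the shares over all tested genes, 25.7% higher and 23.1% lower. Tyrobp, encoding the DAP12 adaptor of the activating receptors, was at 635 ± 72.2 CPM in Eumyc and 658 ± 26.0 CPM in WT and did not pass (edgeR adjusted p = 0.648). Hcst, encoding DAP10, was at 78.5 ± 2.14 CPM in Eumyc and 111 ± 5.46 CPM in WT and fell (log2 fold change -0.51 ± 0.06, edgeR adjusted p = 0.000403). Ptpn6, encoding the phosphatase SHP-1 recruited by inhibitory Ly49 tails, rose by 0.54 ± 0.14 (edgeR adjusted p = 0.0150), a call lost on leaving out WT 1 (0.0563) or WT 2 (0.0605). Inpp5d, encoding the lipid phosphatase SHIP-1, was at 411 ± 26.9 CPM in Eumyc and 396 ± 14.5 CPM in WT and did not pass (edgeR adjusted p = 0.544). Plcg2 and Vav3, which act downstream of activating receptors, rose by 0.63 ± 0.06 and 0.52 ± 0.09.

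NK cells carry class I ligands themselves, and of 12 genes for class I molecules and their loading 5 rose and 1 fell (median 0.15). Over all tested genes 48.8% passed, 25.7% higher and 23.1% lower. The H-2Kb gene H2-K1 was at 4631 ± 231 CPM in Eumyc and 4232 ± 325 CPM in WT, and H2-D1 was at 3356 ± 190 CPM in Eumyc and 3517 ± 102 CPM in WT. Neither passed (edgeR adjusted p = 0.244 and 0.484). B2m, the shared light chain, rose by 0.36 ± 0.08 (edgeR adjusted p = 0.00649), and Tap1, a peptide transporter gene, by 0.51 ± 0.09. The nonclassical genes H2-T22 and H2-Q6 had log2 fold changes of 0.57 ± 0.07 and -0.45 ± 0.07; class I genes resemble each other closely, so single values are uncertain.

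Of 18 transcription factor genes linked to Ly49 expression or NK maturation, 3 rose and 7 fell (median -0.09). Without WT 1 or without WT 2, 4 fell. The shares over all tested genes were 25.7% higher and 23.1% lower. Tcf7, encoding TCF1, which is needed for normal Ly49A expression, was at 283 ± 32.4 CPM in Eumyc and 367 ± 5.28 CPM in WT (log2 fold change -0.38 ± 0.08, edgeR adjusted p = 0.00591), and Klra1 rose. The part of Tcf7 or the other factors in the Ly49 levels was not tested. Runx3 fell with a log2 fold change of -0.47 ± 0.10 (edgeR adjusted p = 0.00641). Eomes, needed for mature NK cells, fell with -0.39 ± 0.10 (edgeR adjusted p = 0.0126; 0.0525 without WT 1 and 0.0526 without WT 2). Tbx21 was at 505 ± 38.8 CPM in Eumyc and 553 ± 9.82 CPM in WT and did not pass (edgeR adjusted p = 0.137). Zeb2 and Prdm1, factors of late maturation, fell with -0.70 ± 0.14 and -0.52 ± 0.08, and Tox rose by 0.67 ± 0.11.

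Of 17 other lectin-like receptor genes of the natural killer gene complex, which includes the Ly49 cluster, 4 rose and 8 fell (median -0.42). Without WT 3, 7 rose. Among all tested genes 25.7% rose and 23.1% fell. The sum of the 17 genes was 5472 to 6004 CPM in Eumyc and 7877 to 8465 CPM in WT. Clec2i, Klrc2 and Klre1 had the largest changes at 10 CPM or more, with log2 fold changes of -0.92 ± 0.08, -0.86 ± 0.12 and -0.82 ± 0.09. Both this list and the Ly49 family thus had a lower sum in Eumyc, and no difference between them was tested.

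Every Eumyc library, with 44456157 to 66615602 counts, was deeper than every WT library, with 16407611 to 36534191. NK cell markers were abundant in all libraries, at a sum of 12800 to 13720 CPM in Eumyc and 14410 to 14640 CPM in WT; 1 of 10, Il2rb, rose and 6 fell, and none rose with scaling by total counts or without WT 1, WT 2 or Eumyc 2. Markers of neutrophils (7 of 7 tested higher, sum 35.2 to 48.9 CPM in Eumyc and 0.164 to 2.80 CPM in WT), B cells (7 of 8 tested higher, 49.9 to 56.3 CPM in Eumyc and 16.1 to 20.01 CPM in WT) and erythroid cells (6 of 7 higher, 408 to 489 CPM in Eumyc and 156 to 187 CPM in WT) were higher in Eumyc. Ly6g and Elane of the neutrophil list and Siglech of the dendritic cell list were at 0 in WT. Scarce genes such as Camp, Mpo, Elane, Retnlg, Ebf1, Flt3 and Siglech passed the filter on low counts only through their Eumyc libraries. The filter thus partly set how many tested neutrophil, B cell and dendritic cell markers were higher, while the sums take in all listed genes. For comparison, 25.7% of all tested genes were higher and 23.1% lower. Dendritic cell markers had 4 of 9 higher and 1 lower (83.2 to 104 CPM in Eumyc and 78.7 to 91.4 CPM in WT; 2 higher without Eumyc 2), and T cell markers 4 of 12 higher and 1 lower (534 to 592 CPM in Eumyc and 467 to 494 CPM in WT). Markers of type 1 innate lymphoid cells, relatives of NK cells, had 9 of 10 higher (7 without WT 1 or without WT 2), with sums of 192 to 342 CPM in Eumyc and 114 to 145 CPM in WT. The other gene, Il7r, had 23.8, 56.9 and 60.85 CPM in Eumyc, against 61.8, 82.75 and 68.1 CPM in WT. It did not pass (edgeR adjusted p = 0.141). Apart from the dendritic cell sum, none of these sums overlapped between the groups, and their part in the Ly49 differences was not tested.

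The genes most like Klra2 over the 6 libraries, among 8996 candidates, were Sept9, Slc41a3, Phf11a, Themis2 and Ifi30, with Pearson r of log2 CPM between 0.9981 and 0.9988. Sept9, first in rank, had 512, 457 and 479 CPM in Eumyc, against 348, 352 and 376 CPM in WT. Its log2 fold change was 0.43, against 3.54 for Klra2, as r does not measure the size of a change. Themis2 had 108, 47.3 and 65.8 CPM in Eumyc, against 7.90, 6.92 and 12.9 CPM in WT. Those most like the family sum were Rin3, Elovl7, Vsig10l, Vrk3 and Arl8a, with r between 0.9931 and 0.9988. Rin3 had 334, 326 and 299 CPM in Eumyc, against 379, 378 and 343 CPM in WT. These correlations are descriptions over 6 points in 2 groups that share libraries and scaling.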

How the data were processed

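The authors deposited whole-number counts per Ensembl gene for 6 libraries, 3 of each group. The submitters' processing notes name DESeq2 1.10.1, HTSeq 0.6.1 and STAR 2.5.2, and the builds mm10 and GRCm38. Read length, strand setting and the treatment of reads with several matches were not given in the sources used here. The authors' deposited table of their own comparison gives a log2 fold change, its p-value and adjusted p-value, a standard error and a test statistic read as score columns, and a mean normalised signal. The log2 fold change, standard error and adjusted p-value were used.

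Each library held 16407611 to 66615602 gene counts, and the p-values measure only the spread between these samples, since the labels do not say whether they came from separate mice. All 50686 genes entered a fit with edgeR 4.0.16 in R 4.3.3 (filterByExpr, TMM, quasi-likelihood test of group, two-sided, Benjamini-Hochberg over 15458 tested genes, threshold 0.05). Standard errors and 95% intervals come from the F statistic and its degrees of freedom. CPM of single genes is TMM-scaled. Family and list sums are CPM of all gene counts. RPKM divides TMM-scaled CPM by the merged exon length in GENCODE M21. Alternatives were DESeq2 1.42.0, limma 3.58.1 voom, DESeq2 size factors, total counts, no filter, omission of each library in turn, and a replicate block. The fit was tested on simulated data. matplotlib 3.10.9 drew the figures.

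The members and gene lists were chosen with earlier results of these data known. Named genes were the 10 members, every other gene with a Klra symbol, 11 genes in any case, and from each list up to 3 called genes with the largest change at 10 CPM or more; of the last, those that stand beside a result are printed. The 5 genes most like a pattern were ranked by Pearson r among tested genes averaging 10 CPM or more.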

Additional observations from a re-analysis of the deposited data

How the results depend on the processing

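The number of members called higher was 4 in every alternative run, including each of the 6 libraries left out (4 to 4), and the number called lower was 4 to 5 with a library left out, Klra3 being the gene that lost its call. No Klra gene changed direction in 168 comparisons of a gene with an alternative, and 158 kept their side of the threshold; the other 10 were Klra3 and Klra17. The family sum had a log2 ratio of -0.39, which became -0.61 when all 14 Klra genes were summed, since the 3 pseudogenes had -1.04, and the activating share then differed by -3.70 percentage points in place of -13.1. With a library left out, the ratio was -0.46 to -0.32 and the share difference -14.8 to -11.3. With the replicate block, 7860 genes passed in place of 7549, and 4 members were higher and 5 lower. Same-numbered libraries deviated together only weakly (r = 0.0404, 0.0985 and 0.126), though each correlated best with its own number, so the numbers were not taken as pairs. Depth limits Klra17 most, with 4 to 16 counts in WT libraries.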
